A study of Mus musculus with 8 samples.

Results

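Lungs of mouse embryos with a constitutively active TGF-beta receptor 1 in the lung epithelium were compared with control lungs, sex by sex and over both sexes, across every gene of the deposited count table. All 8 libraries of the series entered: the 4 mutant libraries (mutant females 1 and 2, mutant males 1 and 2) and the 4 control libraries (control females 1 and 2, control males 1 and 2), chosen by genotype label. The table lists 19150 genes, of which 18164 passed a filter on low counts and were tested. RNA was total RNA from the whole lung at E17.5, late in gestation, on a C57BL background, with oesophagus, trachea and bronchi dissected away, and it was sequenced from TruSeq v2 libraries. Mutants and controls shared strain, age and tissue. The labels leave unstated which promoter or Cre drives the active receptor, the control genotype, the litters and any pooling. They also do not say that each library is a separate animal, so the p-values reflect the spread between these libraries alone, and that spread may be technical.

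TGF-beta signals through a pair of membrane kinase receptors. Ligand brings the type II receptor to the type I receptor, Tgfbr1, which is phosphorylated and in turn phosphorylates Smad2 and Smad3, and these enter the nucleus with Smad4 to act on target genes. A constitutively active type I receptor signals without ligand. Late in gestation the lung epithelium forms gas-exchange sacs while airway cells become ciliated or secretory and distal cells become type 1 or type 2 alveolar cells.

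Reads counted in genes ranged from 17561012 to 20243205 per library, mitochondrially encoded genes took 1.81% to 2.48% of them and the 10 most abundant genes 4.16% to 4.75%. Xist and 4 Y-linked genes placed every library in the sex its label gives. Tgfbr1 itself lay at 79.7 to 98.6 CPM (reads scaled to library size) in controls and at 80.5 to 95.9 in mutants, a log2 difference of 0.01 ± 0.09 (SE, n = 4 against 4; edgeR quasi-likelihood adjusted p = 0.996). Whether reads of the introduced receptor are counted under Tgfbr1 is not given, so this level does not check the genotype labels. The surfactant gene Sftpc at a mean of 6451 CPM and the lung epithelial factor Nkx2-1 at 439 CPM marked the tissue as lung.

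Over both sexes the mutant lungs differed most from controls by a few genes that were near silent or low in control lung and higher in every mutant library: Krt17, Cym and Apob. With sex as a term, edgeR's quasi-likelihood test gave 0 calls among 18164 genes (0%) at an adjusted p under 0.05. At an unadjusted p under 0.05 there were 1061 genes (5.84%), of which 420 (2.31%) were higher in mutants and 641 (3.53%) lower. DESeq2 called 88 genes, edgeR's likelihood ratio test 79 and limma-voom 0. DESeq2 and the likelihood ratio test shared 69 of their calls, 36 higher and 33 lower in mutants. With the replicate number of the labels as a block, the quasi-likelihood test called 3 genes (0.0165%), all of them rises.

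**Figure D1:**
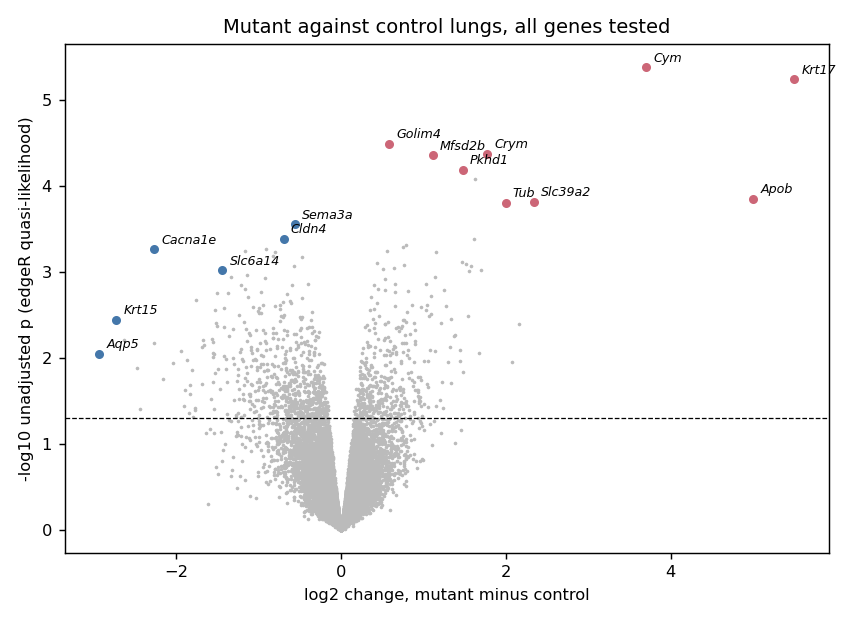
Each point is 1 of 18164 genes; x is the log2 change, mutant minus control, with sex as a term, and y the -log10 of the unadjusted edgeR quasi-likelihood p; the dashed line marks p of 0.05, and named genes are coloured by direction. The smallest p belong to genes higher in mutants, with Krt17, Apob and Cym at the largest changes, and no gene has an adjusted p under 0.05.

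Krt17, a type I keratin of basal and stressed epithelia (ENSMUSG00000035557; chromosome 11, 100256217 to 100261029, minus strand, GRCm38), stood at 0.174 and 0.111 CPM in control females 1 and 2 and at 0.0557 and 0.111 in control males 1 and 2. It stood at 2.82 and 5.56 CPM in mutant females 1 and 2 and at 3.23 and 10.2 in mutant males 1 and 2. Every mutant library thus lay above every control library, with library 2 above library 1 in both mutant sexes. The log2 change was 5.50 ± 0.58 (SE, n = 4 against 4; edgeR quasi-likelihood adjusted p = 0.0518), and Krt17 rose in the fit with the replicate block (adjusted p = 0.00263). The control libraries held 3, 2, 1 and 2 reads of it. Leaving out 1 of mutant male 1, mutant male 2 and mutant female 1 also let it pass the fit with no block, the lowest adjusted p being 0.0184, whereas leaving out control male 2 gave 0.677. Keratin genes resemble each other, and the treatment of reads that fit several of them is unstated, so its exact level is uncertain.

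Cym encodes chymosin, the milk-clotting protease of the newborn stomach (ENSMUSG00000046213; chromosome 3, 107211293 to 107221732, minus strand). Controls held 9.99 and 12.7 CPM in females and 3.40 and 8.25 in males. Mutants held 136 and 83.7 CPM in females and 147 and 64.3 in males. The lowest mutant library thus stood well above the highest control, and in both mutant sexes library 1 was the higher one. The log2 change of Cym was 3.71 ± 0.38 (SE; edgeR quasi-likelihood adjusted p = 0.0518), and it rose with the replicate block (adjusted p = 0.0325). That call was lost under the block when control female 1, control male 2, mutant female 1, mutant female 2 or mutant male 2 was left out. Of the stomach genes listed beside it, Pgc, the precursor of gastricsin, was at 13.9 to 25.6 CPM in controls and 9.0 to 15.7 in mutants. The 6 measured stomach genes other than Cym summed to 40.5 to 51.8 CPM in controls and 25.0 to 32.1 in mutants, so Cym alone carried the list's higher sum in mutants. The remaining 10 of the 17 listed stomach genes were not analysed here.

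Apob, the structural protein of lipoprotein particles made by liver, gut and yolk sac (ENSMUSG00000020609; chromosome 12, 7977648 to 8016835, plus strand), was at 0.0581 and 0 CPM in control females and 0.167 and 0.0554 in control males. Mutant females held 2.98 and 0.689 CPM and mutant males 4.63 and 1.47. Control values were at or below 3 reads per library, and all 4 mutants lay above them. The log2 change was 5.01 ± 0.80 (SE; edgeR quasi-likelihood adjusted p = 0.283), and Apob rose with the replicate block (adjusted p = 0.00263) and in each block fit that left out 1 library. Albumin (Alb), the main liver secretory protein, was at 1.00 to 1.72 CPM in controls and 1.57 to 2.85 in mutants (log2 change 0.67 ± 0.25, edgeR quasi-likelihood adjusted p = 0.789). Cubn, an endocytic receptor of yolk sac and kidney, was at 17.6 to 24.2 CPM in controls and 11.6 to 18.9 in mutants. The 4 measured liver and yolk sac genes other than Apob, most of whose reads were those of Cubn, came together to 26.96 to 31.9 CPM in controls and 21.1 to 26.0 in mutants. Of the 4 tested members of that list, Apob included, 2 were higher (Apob and Alb) and 1 lower (Cubn) at an unadjusted p under 0.05. Over all tested genes the shares were 2.31% higher and 3.53% lower. Whether tissue of another organ played a part in the levels of Cym or Apob was not tested.

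The stretches before the start of Cym, Apob and Pkhd1, a further gene higher in all mutants, are given because Cym and Apob are among the 3 genes that rose with the block, Cym from a low but measured level and Apob from at most 3 reads per library, and the last carries a short SMAD-type element. They are RefSeq promoters of GRCm38.p6, each the 250 bases before the RefSeq start read 5′ to 3′ on the gene's strand, at chr3:107221733-107221982 (minus), chr12:7977427-7977676 (plus) and chr1:20618058-20618307 (minus). The GENCODE gene coordinates used elsewhere differ: they begin Apob at 7977648 and Pkhd1 at 20618064, both inside these windows. Distances to the GENCODE starts of Apob and Pkhd1 are therefore shorter. Capitals mark TATAAA in Cym and Apob and TGTCTG, the reverse complement of CAGACA, in Pkhd1.
Cym: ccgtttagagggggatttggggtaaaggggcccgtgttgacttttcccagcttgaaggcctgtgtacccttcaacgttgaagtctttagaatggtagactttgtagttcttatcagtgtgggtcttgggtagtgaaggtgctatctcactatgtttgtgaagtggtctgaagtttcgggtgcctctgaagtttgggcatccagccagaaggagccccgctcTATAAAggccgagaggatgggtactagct
Apob: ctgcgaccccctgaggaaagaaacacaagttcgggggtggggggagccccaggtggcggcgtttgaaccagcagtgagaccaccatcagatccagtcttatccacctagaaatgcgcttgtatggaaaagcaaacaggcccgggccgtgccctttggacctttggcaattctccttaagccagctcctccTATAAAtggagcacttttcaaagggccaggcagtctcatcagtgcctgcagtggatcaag
Pkhd1: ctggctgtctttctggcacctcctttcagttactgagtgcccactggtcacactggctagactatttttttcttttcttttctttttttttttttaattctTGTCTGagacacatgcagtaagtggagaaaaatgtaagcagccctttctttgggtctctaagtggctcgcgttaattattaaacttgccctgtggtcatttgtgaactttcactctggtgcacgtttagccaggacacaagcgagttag
The match began 29 bases before the RefSeq start in Cym, 60 bases before it in Apob and 149 bases before it in Pkhd1. Searched on both strands, TATAAA occurred in 12.3% of 32536 RefSeq promoters of this length, CAGACA in 17.0%, the palindromic SMAD element GTCTAGAC in 0.169% and the AP-1 element TGACTCA in 4.45%; TATAAA and the SMAD and AP-1 strings did not overlap in the windows shown. Of the 15 genes named below as higher in all mutants, 12 had a RefSeq promoter, and of these 3 held TATAAA, 4 held CAGACA and 0 held either of the others. Of the 15 named as lower, 10 had 1 or more promoters, with TATAAA in 1 gene, CAGACA in 2, TGACTCA in 2 and GTCTAGAC in 0. These matches describe the letters only.

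The genotypes did not overlap in 616 genes: mutants were the higher 4 libraries in 300 (1.65%) and the lower 4 in 316 (1.74%). With 4 libraries a side, some genes separate in this way without any effect of genotype, and their number was not estimated. Lack of overlap in a single gene is therefore a description of its values. Among named genes of at least 1 CPM on average, the 15 on each side with the smallest p are described here; their p chose them, so their values are a description. All 15 higher genes and 12 of the 15 lower ones were also called both by DESeq2 and by the likelihood ratio test. Both tests called 69 of all 18164 tested genes. They used the same counts, and the 30 genes were chosen for small p, so these calls are no separate support. The way the 30 were chosen fixes the same sign in females and in males, so that sameness is no result. The change was larger in males for 10 of the higher and 14 of the lower genes. Over all tested genes the median absolute log2 change was also larger in males, at 0.226 against 0.107 in females. These counts are therefore not shown to be particular to the 30 genes.

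**Figure D2:**
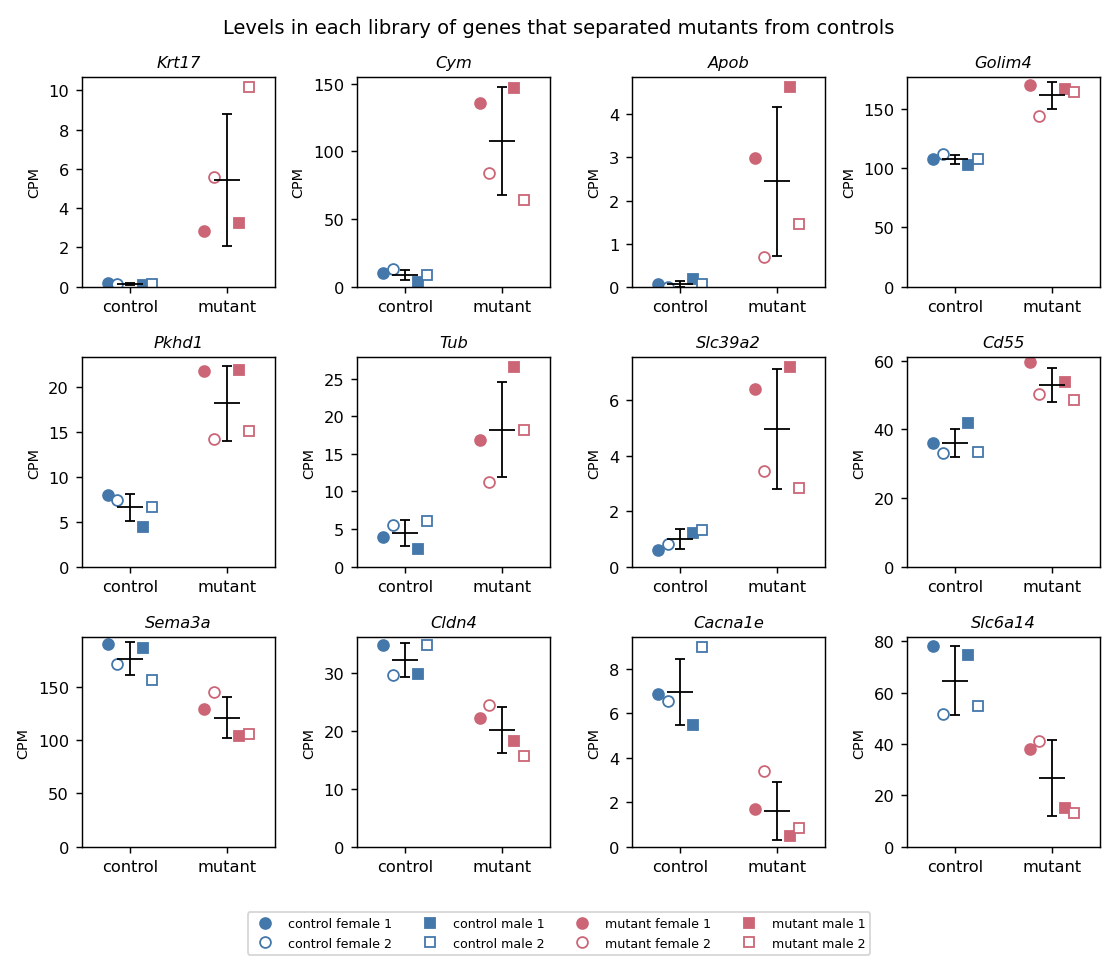
CPM in each of the 8 libraries for 12 genes whose mutant libraries all lie on one side of the controls; circles are females, squares males, filled symbols library 1 and open symbols library 2, with bars for the mean and SD of 4 libraries. Krt17 and Apob lie near 0 and Cym at 3.40 to 12.7 CPM in controls, whereas Golim4 and Cd55 start from a measurable control level, and Cacna1e and Slc6a14 are lowest in mutant males.

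Golim4, a Golgi membrane protein, differed by a small amount with little spread. It was at 107, 112, 103 and 108 CPM in the control females and males and at 170, 144, 167 and 164 in the mutant females and males. The log2 change was 0.59 ± 0.08 (SE; edgeR quasi-likelihood adjusted p = 0.158, and 0.126 with the replicate block). It passed without the term for sex, together with Krt17 and Cym.

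Pkhd1 encodes fibrocystin, a protein of primary cilia and ductal epithelium whose loss causes recessive polycystic kidney disease. It held 7.96 and 7.37 CPM in control females and 4.45 and 6.59 in control males, against 21.8, 14.2, 21.9 and 15.04 in the mutants in the same order. The groups did not overlap, and library 1 was the higher of each mutant pair (log2 change 1.48 ± 0.21, edgeR quasi-likelihood adjusted p = 0.196). Tub, the tubby protein that carries receptors into cilia, was at 3.95, 5.49, 2.28 and 6.04 CPM in controls and at 16.8, 11.3, 26.6 and 18.2 in mutants. The lowest mutant library stood above the highest control (log2 change 2.00 ± 0.32, adjusted p = 0.283).

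Slc39a2, a zinc importer, was at 0.581 to 1.33 CPM in controls and 2.83 to 7.21 in mutants (log2 change 2.34 ± 0.38, edgeR quasi-likelihood adjusted p = 0.283), and it passed at an adjusted p of 0.0446 without mutant male 2. Crym, a thyroid hormone binding protein, was at 1.06 to 1.497 CPM in controls and 2.91 to 5.82 in mutants (1.77 ± 0.24, adjusted p = 0.158). Mfsd2b, the sphingosine-1-phosphate exporter of red cells and platelets, was at 2.99 to 3.77 and 6.41 to 8.41 CPM (1.11 ± 0.15, adjusted p = 0.158). None of these 3 genes overlapped between genotypes. Cd55, which blocks complement on the cell surface, went from a range of 33.0 to 41.8 CPM to one of 48.5 to 59.6, and its neighbour Cd55b, also on chromosome 1 minus strand, from 0.465 to 1.27 to 1.59 to 3.77. These neighbours are close copies, and reads shared between them may have been split, so their values are uncertain. Edar, the ectodysplasin receptor of skin appendages, was at 0.720 to 1.17 CPM in controls and 1.75 to 4.31 in mutants, and Pcdh20, a protocadherin, at 5.93 to 9.04 and 10.5 to 20.6. Adamdec1, a metalloprotease family member of gut stroma and macrophages, differed between the mutant sexes, with 7.46 to 10.6 CPM in controls, 14.4 and 13.4 in mutant females, and 43.1 and 41.3 in mutant males. Rnf24, a RING finger protein, was at 9.35 to 13.1 CPM in controls and 15.3 to 20.2 in mutants.

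The genes lower in every mutant had smaller changes than Krt17, Cym and Apob. Sema3a, a secreted guidance cue, was at 191, 172, 187 and 157 CPM in the control females and males and at 129, 145, 104 and 106 in the mutants (log2 change -0.56 ± 0.10, edgeR quasi-likelihood adjusted p = 0.458). Cldn4, a tight junction protein of fluid-transporting epithelium, was at 34.7, 29.6, 29.7 and 34.7 CPM in controls and 22.2, 24.5, 18.1 and 15.5 in mutants (-0.70 ± 0.13, adjusted p = 0.505). In both genes the mutant males were the lowest pair. Slc6a14, an amino acid importer of epithelia, was at 51.6 to 78.0 CPM in controls, 38.0 and 41.3 in mutant females and 15.1 and 13.0 in mutant males (-1.44 ± 0.30, adjusted p = 0.516). Cacna1e, a voltage-gated calcium channel subunit, was at 5.46 to 8.97 CPM in controls, 1.68 and 3.39 in mutant females and 0.484 and 0.830 in mutant males (-2.27 ± 0.44, adjusted p = 0.505). Both genes thus stepped down from controls to mutant females to mutant males with no overlap.

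Matrix genes in this set were Efemp1 (fibulin-3), at 30.0 to 36.9 CPM in controls and 18.8 to 26.0 in mutants, the gelatinase Mmp9 at 1.34 to 1.67 and 0.477 to 0.868, and the matrix protease Adamts8 at 8.31 to 11.3 and 4.35 to 6.89. Membrane and junction genes were the cadherin Cdh8 at 12.9 to 20.2 and 8.24 to 12.8 CPM, the cation channel Trpm3 at 7.15 to 8.09 and 3.08 to 5.09, and the receptor-associated Shisa7 at 12.1 to 17.1 and 6.08 to 10.9. The scaffold Homer2 lay at 37.7 to 44.0 CPM in controls and 23.5 to 33.9 in mutants, and Ssx2ip, a centrosome and junction protein, at 64.8 to 70.4 and 44.0 to 55.8. Lrrc75b and Aim1l were at 4.68 to 4.93 and 5.66 to 10.3 CPM in controls and at 1.67 to 3.34 and 2.35 to 4.88 in mutants.

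**Figure D3:**
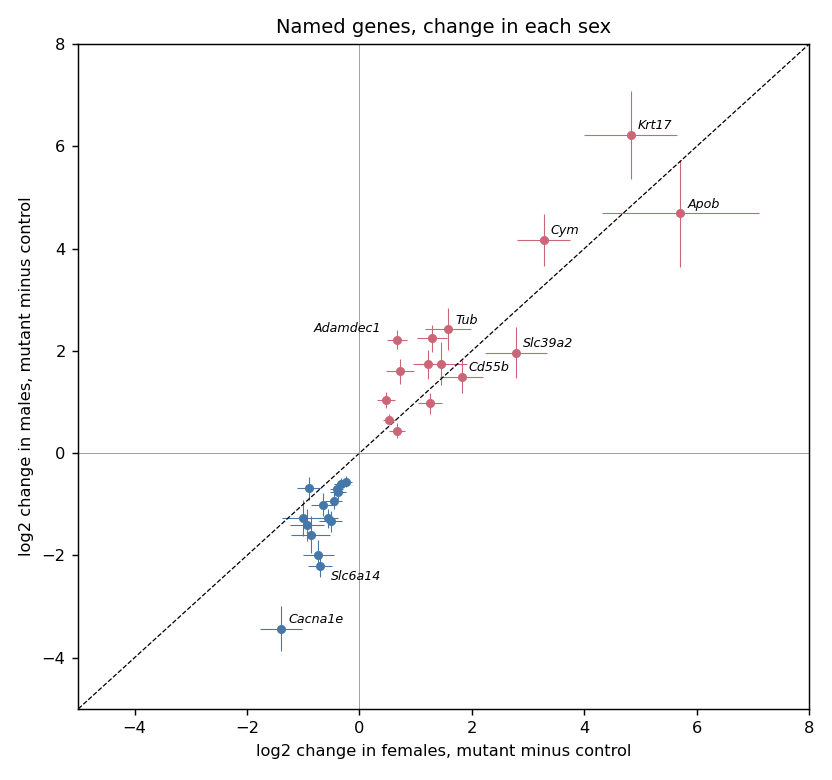
Log2 change, mutant minus control, in females (x) and in males (y) for the 30 genes whose mutant libraries all lie on one side of the controls; bars are standard errors, red points are higher and blue points lower in mutants, and the dashed line is equality. The choice of genes puts all points in the 2 quadrants of equal sign. The lower genes lie below the line, away from 0 in males, with 1 exception of the 15. Over all tested genes the median absolute log2 change was also larger in males (0.226) than in females (0.107).

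Genes of the receptor's own pathway stood close to control. Of 18 TGF-beta family receptors and SMADs, 13 had a positive log2 change, the median was 0.03, and 1 was higher at an unadjusted p under 0.05, beside 52.4% positive, a median of 0.01 and 2.31% higher over all tested genes. That gene was Smad9, a BMP-class SMAD, at 23.1 to 31.1 CPM in controls and 27.8 to 42.8 in mutants with overlapping groups (0.41 ± 0.12, edgeR quasi-likelihood adjusted p = 0.666). Smad3, the SMAD next downstream of the receptor, was at 96.9 to 108 CPM in controls and 99.7 to 130 in mutants (0.15 ± 0.10, adjusted p = 0.906). Smad5 separated the groups by a small margin, at 238 to 258 and 260 to 296 CPM (0.14 ± 0.07, adjusted p = 0.897).

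Among 20 ligand and latency genes, 12 were positive with a median of 0.06. Tgfb2, 1 of the 3 TGF-beta ligands, was at 191, 209, 170 and 194 CPM in controls and 139, 170, 155 and 148 in mutants, where the highest mutant library touched the lowest control (-0.32 ± 0.09, edgeR quasi-likelihood adjusted p = 0.656). Fstl3, a secreted activin inhibitor, was at 2.94 to 4.82 CPM in controls and 5.08 to 7.76 in mutants, without overlap (0.55 ± 0.21, adjusted p = 0.807).

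Of 34 feedback and target genes of SMAD3 signalling, 21 were positive, with a median of 0.10, and 4 were higher and 0 lower at an unadjusted p under 0.05, beside 2.31% higher and 3.53% lower of all genes. Leaving out 1 library moved the median to between 0.01 (without mutant male 1 or mutant female 1) and 0.09, with 0.04 without control male 1 and 0.06 without mutant female 2. The higher members were Ski and Skil, the corepressors that limit SMAD activity, Mmp2 and Id1. Ski was at 179, 184, 193 and 199 CPM in controls and 270, 208, 291 and 227 in mutants, without overlap and with library 1 the higher of each mutant pair (0.40 ± 0.11, edgeR quasi-likelihood adjusted p = 0.635). Mmp2, a gelatinase of mesenchyme, was at 271 to 326 CPM in controls and 343 to 379 in mutants (0.29 ± 0.08, adjusted p = 0.635). Id1, a BMP target and inhibitor of helix-loop-helix factors, was at 57.8 to 69.4 and 72.6 to 77.9 CPM (0.27 ± 0.08, adjusted p = 0.666). Widely used readouts stood at 0.25 for the inhibitory SMAD Smad7 and -0.40 for the matrix protein fibronectin (Fn1) on the log2 scale, neither called. In the quasi-likelihood fit over both sexes that gave 0 calls, no list of this report had a called member. With the block only Krt17, Cym and Apob were called. Without the block, DESeq2 and the likelihood ratio test both called some list members, among them Krt17, Cym, Apob, Krt15, Ndnf, Cldn4, Efemp1 and Pgc.

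Genes of mesenchyme next to the epithelium were close to control as groups. The 20 fibroblast genes had a median of 0.02 and 24 collagens outside cartilage a median of -0.01. Pdgfra, the receptor that marks alveolar myofibroblast precursors, was at 308, 264, 321 and 259 CPM in controls and 433, 327, 390 and 380 in mutants, without overlap (0.41 ± 0.11, edgeR quasi-likelihood adjusted p = 0.643). Its ligand Pdgfa, made by epithelium, was at 58.9 to 76.8 CPM in controls and 78.6 to 134 in mutants, again without overlap (0.59 ± 0.19, adjusted p = 0.711). Ednrb, an endothelin receptor taken from the endothelial list, was at 247 to 308 and 332 to 379 CPM (0.34 ± 0.09, edgeR quasi-likelihood adjusted p = 0.635). In that list 16 of the 23 tested genes were negative (median -0.07). Laminin chain Lama2 lay at 79.0 to 92.5 and 93.4 to 129 CPM (0.33 ± 0.11, adjusted p = 0.752). Smooth muscle and myofibroblast genes went the other way, with 15 of 18 negative and a median of -0.26, which was -0.05 in females and -0.50 in males. Among them Myh11, smooth muscle myosin, was at 207 to 231 CPM in controls, 197 and 220 in mutant females and 129 and 138 in mutant males. Elastic fibre genes had a median of -0.02. Eln itself, the elastin gene, was similar in the female libraries, at 2418 and 1855 CPM in controls beside 2129 and 1777 in mutants, and differed in the males, at 3955 and 2783 CPM in controls beside 1272 and 1038 in mutants. Its log2 change was -0.84 ± 0.29 over both sexes (adjusted p = 0.764), -0.13 in females and -1.54 in males.

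Lists of differentiated epithelium had medians below 0 over both sexes, with female medians near 0 or above it and male medians well below it. The quasi-likelihood test called no member of these lists. DESeq2 and the likelihood ratio test both called Krt15 of the club list and Ndnf of the type 1 list. Ciliated cell genes were negative in 25 of 28, with 12 lower at an unadjusted p under 0.05 beside 3.53% of all genes, and a median of -0.48; the median was -0.05 in females and -0.86 in males. Club cell genes were negative in 17 of 18, with 9 lower at that threshold and a median of -0.76, 0.01 in females and -1.87 in males. Type 1 alveolar genes were negative in 18 of 23 with 7 lower (median -0.50, -0.04 in females and -0.97 in males). Type 2 alveolar genes were negative in 22 of 23 over both sexes (median -0.30), but 1 of the 23 was lower at that threshold, a share near that of all genes, and 2 of 23 were negative in females (median 0.20) against 21 of 23 in males (median -0.88). In bulk lung, fewer cells of a type and less RNA per cell cannot be told apart.

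The ciliated genes with small p held both patterns, lower in all mutants and lower in mutant males. Ccno, a cyclin-like protein of basal body amplification, was at 11.2, 8.43, 9.80 and 10.6 CPM in controls and 6.89, 7.84, 4.84 and 5.32 in mutants, without overlap (-0.71 ± 0.17, edgeR quasi-likelihood adjusted p = 0.627). Gmnc, which starts multiciliated cell fate, was at 2.71 to 2.79 CPM in controls and 0.879 to 2.54 in mutants, with mutant female 2 just under the controls. Foxj1, which directs motile cilia, was at 57.5, 40.8, 63.1 and 63.5 CPM in controls and 41.0, 44.4, 26.8 and 22.7 in mutants, so that mutant females overlapped control female 2 and mutant males lay below all others.

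Club cell genes were lowest in mutant males. Scgb3a2, a secretoglobin of early airway epithelium, was at 374, 227, 458 and 426 CPM in controls and 176, 318, 130 and 104 in mutants (-1.10 ± 0.35, edgeR quasi-likelihood adjusted p = 0.728). Cbr2, a carbonyl reductase of club cells, was at 108 to 492 CPM in controls, 159 and 142 in mutant females and 31.0 and 21.0 in mutant males. Mutant females lay inside the control range for Cbr2 and mutant males below it, and the same held for haptoglobin (Hp), at 76.1 to 201 CPM in controls, 92.0 and 78.4 in mutant females and 33.8 and 20.7 in mutant males. Type 2 alveolar genes had a like layout. Napsa, a protease that processes surfactant protein, was at 108 to 189 CPM in controls, 152 and 118 in mutant females and 101 and 62.6 in mutant males. The chemokine Cxcl15 was at 244 to 891 CPM in controls, 405 and 290 in mutant females and 167 and 159 in mutant males.

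Of 20 lung epithelial transcription factors, 15 were negative with a median of -0.09. Foxa1, a pioneer factor of endoderm, was at 67.4 to 79.8 CPM in controls and 53.0 to 65.8 in mutants, without overlap (-0.25 ± 0.10, edgeR quasi-likelihood adjusted p = 0.815). Klf5 was at 48.3 to 69.2 CPM in controls, 57.5 and 42.5 in mutant females and 38.2 and 24.9 in mutant males, where the groups overlapped. Cdh1, the epithelial cadherin, was at 500 to 596 CPM in controls, 556 and 479 in mutant females and 414 and 354 in mutant males (-0.34 ± 0.13, adjusted p = 0.815). The 18 tested regulators of epithelial to mesenchymal transition, Cdh1 among them, had 9 positive and 9 negative changes and a median of 0.01. Outside the epithelium, mesothelin (Msln), a surface protein of the pleural lining, was at 96.5 to 316 CPM in controls, 114 and 80.5 in mutant females and 33.0 and 17.7 in mutant males. Of the 10 mesothelial genes 8 were positive over both sexes (median 0.05). By sex, 9 were negative in females (median -0.20) and 3 in males (median 0.33).

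Among airway keratins Krt15 ran opposite to Krt17. Krt15, of basal and airway cells, was at 45.6, 27.8, 26.4 and 51.0 CPM in controls and 9.55, 21.2, 1.08 and 1.56 in mutants, without overlap (-2.73 ± 0.70, edgeR quasi-likelihood adjusted p = 0.635). Per length, in the deposited RPKM, mean Krt15 was 15.6 in controls and 3.48 in mutants while mean Krt17 was 0.0722 and 3.50. Krt15 thus stood far above Krt17 in controls, while the mutant mean of Krt15 came mostly from the females, whose CPM were the 2 higher of the 4 given above. The simple epithelial keratins Krt8, Krt18 and Krt19 remained the more abundant ones, at mean RPKM of 178, 150 and 88.1 in controls and 129, 114 and 49.7 in mutants. Krt8 separated the groups, at 288 to 348 CPM in controls and 181 to 276 in mutants (-0.50 ± 0.13, adjusted p = 0.635). Trp63, the transcription factor of basal cells, was at 0.290 to 0.942 CPM in controls and 0.377 to 1.37 in mutants, overlapping, and the 10 measured basal genes other than Krt17 summed to 1223 to 1471 CPM in controls and 927 to 1318 in mutants.

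Type 1 alveolar genes were led by Ndnf, a secreted neuron-derived factor, at 527, 494, 475 and 430 CPM in controls and 348, 461, 212 and 249 in mutants, where mutant female 2 alone reached into the control range (-0.66 ± 0.15, edgeR quasi-likelihood adjusted p = 0.591). Aqp5, a water channel, spread widely within controls, at 19.2, 7.10, 53.5 and 17.4 CPM, and was at 7.21, 4.77, 1.18 and 0.440 in mutants. Of 17 genes for lung fluid channels and pumps, 14 were negative (median -0.38, 0.10 in females and -0.79 in males; -0.10 without mutant male 2 and -0.13 without control male 1), and the potassium channel subunit Kcnq1 was the member that separated the groups, at 10.4 to 12.7 and 6.64 to 10.1 CPM. The signalling lists showed no common direction. Of 20 FGF and distal tip genes 13 were negative (median -0.06), with 4 higher and 2 lower at an unadjusted p under 0.05. Of 23 Wnt genes 16 were positive (median 0.08), with 0 higher and 1 lower, and of 14 Notch genes 8 were negative (median -0.03), with 0 higher and 1 lower. Over all tested genes 2.31% were higher and 3.53% lower at that threshold. Each of these lists had 1 member that separated the groups, and it was lower in mutants. Over all tested genes 1.65% separated as higher and 1.74% as lower, so 1 such gene gives no direction for its list. Fgf18 was at 13.1 to 14.2 CPM in controls and 5.52 to 11.1 in mutants. Wnt5a was at 80.3 to 90.0 and 50.9 to 77.3 CPM, and the Notch ligand Jag1 at 49.7 to 51.6 and 36.5 to 45.9. The edgeR quasi-likelihood adjusted p of each was at least 0.635.

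**Figure D4:**
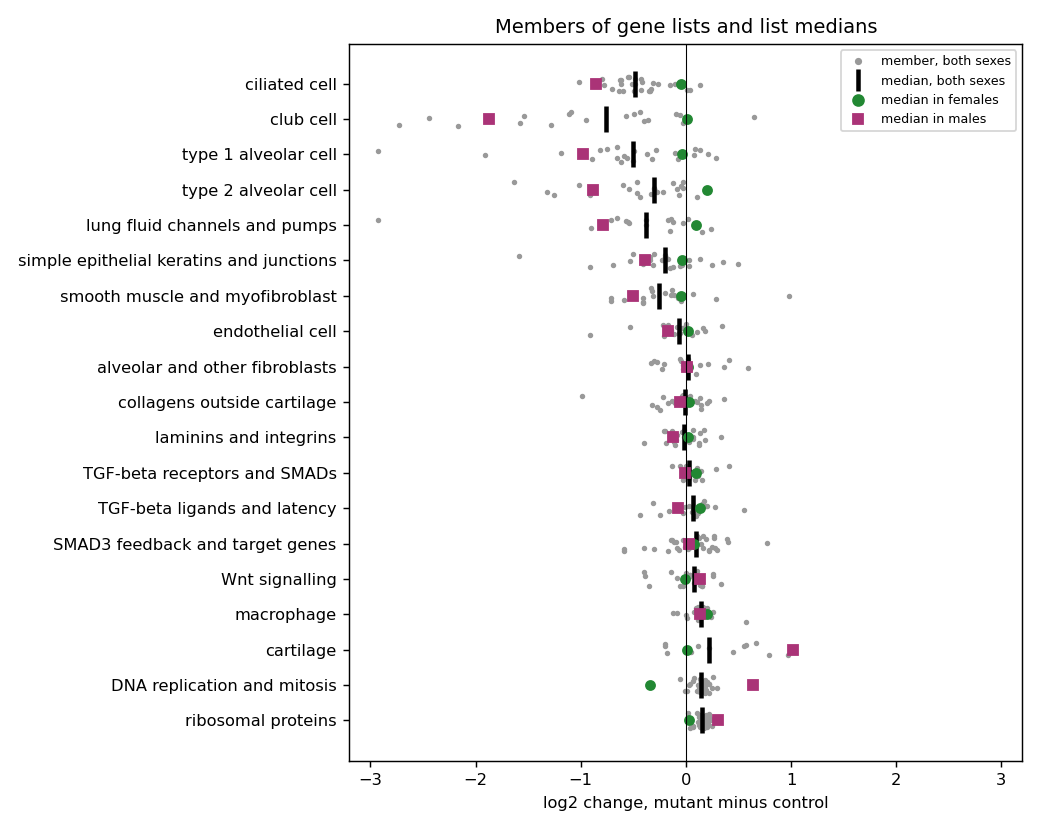
Log2 change, mutant minus control, of each tested member of 19 gene lists over both sexes (grey), with the list median over both sexes (bar), in females (green circle) and in males (purple square). Airway and alveolar lists have medians below 0 over both sexes with the female medians near 0 or above it, and the DNA replication and mitosis list has medians of opposite sign, -0.34 in females and 0.64 in males.

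The libraries' own spread was wide beside the genotype. On the first principal component of 12793 genes (49.7% of the variance), control libraries ran from -17.7 to 30.7 and mutant libraries from -30.4 to 17.2, and in each of the 4 groups library 1 lay above library 2. The second component (20.2%) held mutant males at 22.3 and 9.74 against control males at 1.92 and 3.18, and mutant females at 3.62 and -12.2 against control females at -10.7 and -17.8. Each mutant thus lay above the control of its own sex and number on the second component, while mutant female 2 lay below control female 1. The labels do not say what the replicate number marks.

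**Figure D5:**
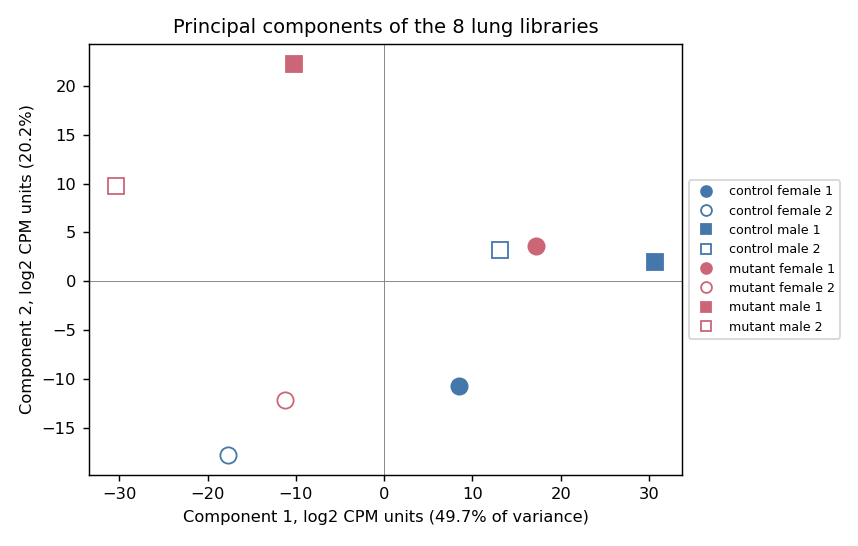
The 8 libraries on the first 2 principal components of log2 CPM over 12793 genes; colours give the genotype, circles females, squares males, filled symbols library 1 and open symbols library 2. On component 1 the libraries numbered 1 lie to the right of those numbered 2 in every group, and on component 2 each mutant lies above the control of its own sex and number.

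Whether the genotype difference depended on sex was tested as an interaction. By edgeR's quasi-likelihood test 0 of 18164 genes (0%) were called, and 2266 had an unadjusted p under 0.05 (12.5%), a larger share than in the comparison over both sexes; limma-voom called 0, DESeq2 188 and the likelihood ratio test 196. With the replicate block it called 1695 genes (9.33%), and leaving out 1 library moved that count to between 623 (without control female 2) and 3025 (without control male 1), with 777 without control female 1, 717 without mutant female 1 and 973 without mutant male 1. A log2 change of more than 1 in either direction was found in 1020 genes (5.62%) in males and 240 (1.32%) in females, and the median absolute log2 change was 0.226 in males and 0.107 in females.

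Single genes with the smallest interaction p illustrate the range. Epha4, an ephrin receptor, was at 84.7, 88.3, 65.6 and 69.5 CPM in control females and males and at 86.2, 88.9, 130 and 129 in mutant females and males. Mutant females differed from control females by less than their spread while mutant males lay above every other library. The difference of the 2 changes was tested by the interaction (male minus female 0.92 ± 0.13, edgeR quasi-likelihood adjusted p = 0.317, and 0.00084 with the replicate block). Col9a1, a cartilage collagen, was at 11.8 and 16.5 CPM in the control females, 7.87 and 10.7 in mutant females, 5.07 and 7.37 in control males and 21.4 and 21.0 in mutant males, a change of opposite sign in the sexes (2.38 ± 0.34, adjusted p = 0.317, and 0.000198 with the block). Retnla, a secreted resistin-like protein, was at 47.1 to 178 CPM in controls, 66.4 and 64.4 in mutant females and 16.7 and 16.1 in mutant males (-3.18 ± 0.53, adjusted p = 0.317, 0.00396 without control male 2, and 0.000557 with the block). All 3 genes were chosen for their interaction p, and each was also called in the 8 block fits that left out 1 library. Of the 112 genes recomputed under every alternative, many of them chosen for small p, the interaction was called for 0 without the block and for 48 with it, beside 9.33% of all genes. Among the 48 were Adamdec1, Slc6a14, Eln, Aqp5, Cbr2, Hp, Msln and Ccnb1, whose levels in each sex are given in this report.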

How the data were processed

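RNA was measured in 8 lung libraries, grouped by the genotype and sex of their labels. The authors deposited 1 table with raw read counts per gene and library, per the file headers. It also holds RPKM per library and, for the authors' comparison of the genotypes, a log2 fold change, likelihood ratio score, p-value and FDR per gene, per its deposited headers. Tools named without a role in the submitters' processing notes are edgeR 3.16.5, HTSeq 0.6.1p2, STAR 2.5.2b, Trimmomatic 0.35 and cutadapt 1.13. Build, annotation, strand handling and the authors' model: not given in the sources used here. No gene had fewer than 28 deposited reads over the libraries.

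Tests on the counts used R 4.3.3 and edgeR 4.0.16 with TMM, a low count filter (filterByExpr, minimum 10 reads) that kept 18164 of 19150 genes, two-sided quasi-likelihood F tests, a term for sex, and Benjamini-Hochberg adjustment at 0.05. Changes within a sex and the interaction came from 4 group means sharing 1 estimate of the spread. RPKM was used only to compare levels between genes, and coordinates came from GENCODE M21 on GRCm38 by gene ID. Libraries of 1 group differed by 14.1 to 20.4 times the sampling variance and counted as separate samples. The script for the tests was tested on simulated data.

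Groups share replicate numbers 1 and 2. Over 12793 genes the deviations of same-numbered libraries correlated at 0.180 to 0.626 across genes in the 6 pairs of groups, all over 0.1. A blocked value therefore stands beside each call over both sexes that the block moved. For the interaction, the block moved 48 of 112 calls, and blocked values are printed singly only for Epha4, Col9a1 and Retnla. This pairing comes from the data: the labels do not say what the number marks.

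Of 843 symbols in 47 lists, 735 were tested. The comparison, the lists and the rule for named genes were chosen with earlier results of these data known. The rule took genes called in the fit or with the block, the 15 smallest p in each direction among genes of at least 1 CPM with all mutants on one side, up to 4 members of each list, Tgfbr1 and 5 sex-linked genes, and the genes with the smallest interaction p. Other genes, Sftpc, Nkx2-1, Smad7 and Fn1, were chosen after their values were seen. Some genes that the rule takes are not reported here. Alternatives were other normalizations and filters, DESeq2 1.42.0, limma-voom (limma 3.58.1), edgeR's likelihood ratio test, no sex term, the replicate block and leaving out each library.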

Additional observations from a re-analysis of the deposited data

Results flagged for a closer look

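In groups of 4 libraries, 10 single values stood apart from the other 3 of their genotype; chance does this in about 1 in 20 groups, and 224 were examined. Control female 2 was low in 5 epithelial genes: Krt19 at 196 CPM (others 275 to 293), Clic3 at 74.2 (101 to 107), Elf3 at 22.5 (33.2 to 35.8), Aqp4 at 8.04 (15 to 16.2) and Aim1l at 5.66 (9.35 to 10.3). Control female 1 was high in Homer2, at 44.0 CPM against 37.7 to 38.6. Control male 1 was high in Edar, at 1.17 CPM against 0.720 to 0.755, and low in Pgc, at 13.9 against 24.2 to 25.6. Mutant male 2 was high in the matrix protease Mmp16, at 8.74 CPM against 4.98 to 5.33, and mutant male 1 in the ribosomal protein gene Rps20, at 820 CPM against 629 to 655.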

How the results depend on the processing

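Over both sexes the count of called genes was 0 with the quasi-likelihood test, 2 with RLE size factors, with library totals only or with no low count filter (Krt17 and Cym each time), 0 among genes of at least 1 CPM, 3 without the sex term, 3 with the replicate block, 0 with limma-voom, 79 with the likelihood ratio test and 88 with DESeq2. It was 0 to 3 when 1 library was left out: 1 without mutant female 1, 2 without mutant male 1, 3 without mutant male 2 and 0 otherwise. The authors' deposited table called 775 genes at a false discovery rate under 0.05, among them all 79 and all 88. The interaction count of 0 became 0 to 1 when 1 library was left out, 188 with DESeq2, 196 with the likelihood ratio test and 1695 with the replicate block. Chosen after the data were seen, the likelihood ratio test with the block gave 160 calls over both sexes and 2315 for the interaction, and the block without 1 library gave 2 to 4 and, for the interaction, 777 without control female 1, 623 without control female 2, 3025 without control male 1, 1738 without control male 2, 717 without mutant female 1, 1383 without mutant female 2, 973 without mutant male 1 and 1167 without mutant male 2. Of the genes described, the block changed the call over both sexes for Krt17, Cym and Apob, and the interaction call for 48 of 112 (single-gene interaction alternatives were chosen after the data were seen). Tgfbr1, at 0.01, took the opposite sign without 1 library (range -0.063 to 0.069) and with the block without control male 2, mutant male 2 or mutant male 1 (-0.075, -0.049 and -0.0077). The other genes described kept their sign. Without 1 library, the list median was -0.53 to 0.02 for interferon genes, -0.04 to 0.40 for mitosis, -0.57 to -0.11 for type 2, -0.74 to -0.28 for type 1, -1.25 to -0.59 for club, -0.65 to -0.34 for ciliated cell, 0.08 to 0.25 for ribosomal protein, -0.16 to -0.05 for transcription factor, 0.02 to 0.11 for Wnt and -0.08 to -0.02 for FGF genes. The causes were not tested. Genes near 0 reads in controls, such as Krt17 and Apob, have imprecise changes at this depth.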

Other observations

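Genes of cell division had changes of opposite sign in the sexes. Of 36 replication and mitosis genes, 36 were lower in mutant than in control females and 0 in mutant than in control males. The medians were -0.34 and 0.64, beside -0.002 and 0.01 over all tested genes. Over both sexes the median was 0.15 with 0 members at an unadjusted edgeR quasi-likelihood p under 0.05. Each gene's log2 CPM was centred on its mean over the 8 libraries and averaged over the list. The averages were 0.005 and 0.507 in control females and -0.520 and 0.295 in mutant females, which overlapped. They were -0.62 and -0.15 in control males and 0.02 and 0.47 in mutant males. The 36 genes share these libraries and do not count as 36 separate results. Ccnb1, a mitotic cyclin, was at 98.6 and 131 CPM in the control females, 66.6 and 117 in mutant females, 55.1 and 72.1 in control males and 99.8 and 129 in mutant males. In each of these groups library 2 was the higher. Of the FGF and distal tip genes, which as a list had medians of 0.01 in females and -0.05 in males, Mycn and Sox9 were among the 4 higher at an unadjusted p under 0.05. Mycn, a growth-promoting transcription factor, was at 12.1 to 22.5 CPM in controls, 21.97 and 26.3 in mutant females and 39.1 and 33.9 in mutant males, and Sox9, a distal progenitor factor, at 34.0 to 56.0 in controls, 50.7 and 49.0 in mutant females and 77.8 and 73.3 in mutant males.

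All 36 ribosomal protein genes had a positive change over both sexes (median 0.16, with 0 at an unadjusted p under 0.05), beside 52.4% of all tested genes. The median was 0.08 without mutant male 1 and 0.25 without control female 1. Averaged over the list, centred log2 CPM was highest in mutant male 1, at 0.29. Control female 1, at 0.13, lay above mutant females 1 and 2 and mutant male 2, at 0.06, -0.04 and 0.005. Macrophage genes were positive in 18 of 20, with 0 at an unadjusted p under 0.05, and their median of 0.14 became 0.03 without control male 2, 0.09 without control female 2 and 0.25 without control male 1. Cartilage genes were positive in 10 of 13 with a median of 0.01 in females and 1.02 in males. Interferon response genes were negative in 16 of 19 (median -0.25), with 2 of 19 negative in females and 17 of 19 in males.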
